A study of Mus musculus with 14 samples.

Results

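The Klk1 gene family of the mouse encodes glandular kallikreins, and 10 of its genes were followed over 14 libraries of sorted submandibular gland cells. The 10 genes were Klk1, Klk1b1, Klk1b3, Klk1b4, Klk1b5, Klk1b9, Klk1b16, Klk1b22, Klk1b24 and Klk1b26, and they were the rows of the count table with these gene names. The table held 54532 genes, of which 15915 passed the filter on low counts, and all 10 kallikrein genes were among those 15915.

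Kallikreins are serine proteases that the granular convoluted tubules, a segment of the ducts of the rodent submandibular gland, store in granules and release into saliva. Tissue kallikrein, the product of Klk1, frees kinins from kininogen, and several Klk1b proteins bind or process the growth factors that the same tubule cells secrete. In mice this duct segment is larger in males and responds to androgens and thyroid hormone.

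RNA was sequenced from cells of adult mice of the genotype TertCreERT2/+ Rosa26LSL-tdTomato/+, in which an inducible Cre recombinase at 1 copy of the Tert locus switches on the red reporter tdTomato. Live cells were sorted by exclusion of DAPI and by staining for EpCAM, an epithelial surface protein. The titles call the tdTomato-positive cells Tert+ and the tdTomato-negative cells Tert-. The glands either received no radiation or 15 Gy (RT), which gave 4 groups: without RT there were 3 libraries of Tert+ and 3 of Tert- cells, and after RT there were 4 of each population. The time between RT and the sort, the sex, the age in weeks and the tamoxifen treatment are not given in the sources used here. All 4 groups carry the same alleles, so the Tert- cells hold the same Cre and reporter genes, and tdTomato marks cells in which Cre has acted, with any descendants. Whether each replicate is a different animal is not stated, and the p-values therefore describe the spread of these libraries, which may be technical.

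Groups were taken from the titles, which matched the description codes in all 14, whereas the cell type field named the opposite population in 14 of 14, so every Tert+ against Tert- direction rests on the titles. Totals ran from 5520412 to 15943597 counts. The median rank correlation of a library with its own group was lowest in Tert+ RT replicate 4, at 0.912, and the other 13 libraries had 0.922 to 0.946. Xist was counted in 14 of 14 libraries, with a median of 256 CPM (read counts scaled to a common library total), whereas Eif2s3y, Uty, Kdm5d and Ddx3y, which lie on the Y chromosome, were counted in 0. The sorted cells carried much RNA of B cells, with Cd79a, a chain of the B cell receptor complex, at 2134 to 3923 CPM, while Epcam itself lay between 29.7 and 126 CPM. In such bulk samples, fewer duct cells and less RNA per duct cell cannot be told apart.

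The kallikrein genes lie together on chromosome 7 of mm10, all on the + strand, from the start of Klk1b1 at base 43966751 to the end of Klk1 at base 44229618, a span of 262868 bases. Klk1 stands at the downstream end of this row. Promoter windows from RefSeq, on GRCm38.p6, reach from 250 bases before to 50 bases after each annotated start and were found for all 10 genes. The windows of Klk1, of the abundant Klk1b26 and of Klk1b22, whose RT against no RT difference was the furthest from 0, are shown because these 3 genes carry most of the comparisons below, and capitals mark the motif TTTAAA.
Klk1 promoter, chr7:44225110-44225409, + strand: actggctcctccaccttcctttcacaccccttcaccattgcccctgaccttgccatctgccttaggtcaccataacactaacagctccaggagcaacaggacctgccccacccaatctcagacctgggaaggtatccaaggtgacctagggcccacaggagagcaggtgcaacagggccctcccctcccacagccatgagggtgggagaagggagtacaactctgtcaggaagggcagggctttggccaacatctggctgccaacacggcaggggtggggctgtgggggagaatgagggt
Klk1b26 promoter, chr7:44012428-44012727, + strand: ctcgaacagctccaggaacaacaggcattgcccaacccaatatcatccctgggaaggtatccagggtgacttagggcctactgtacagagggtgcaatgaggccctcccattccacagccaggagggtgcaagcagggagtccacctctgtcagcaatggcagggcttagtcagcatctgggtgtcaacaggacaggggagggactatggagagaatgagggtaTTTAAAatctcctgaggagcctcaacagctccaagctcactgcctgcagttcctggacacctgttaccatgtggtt
Klk1b22 promoter, chr7:44112423-44112722, + strand: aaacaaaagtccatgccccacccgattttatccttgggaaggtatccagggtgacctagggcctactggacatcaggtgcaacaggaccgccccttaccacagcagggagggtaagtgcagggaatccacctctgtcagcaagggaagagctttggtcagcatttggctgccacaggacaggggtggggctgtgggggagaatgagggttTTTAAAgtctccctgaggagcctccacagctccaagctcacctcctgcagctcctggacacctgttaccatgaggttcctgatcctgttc

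The motif TTTAAA, which reads the same on both strands, was present in 9 of 10 windows, against 13.2% of 32851 RefSeq promoter windows of the same length. It started 26 bases before the annotated start in Klk1b26 and 40 bases before it in Klk1b22. The window of Klk1 held no TTTAAA. The string GAATGAGGG preceded TTTAAA by 1 or 2 bases in 7 genes, among them Klk1b26 and Klk1b22, and occurred in 0.350% of all windows on either strand. It is a stretch that these close copies share, so its presence in them cannot be set against that percentage. In Klk1 this string began at base 41 after the annotated start and the window ended 1 base behind it, so the letters that follow were not in the window. TATAAA was found in 0 of 10 windows against 13.6% of all, AGAACA in 2 of 10 against 18.97%, and CCAAT in 7 of 10 against 37.4%, each searched on both strands. The AGAACA matches were in Klk1b3 and Klk1b24. The promoter windows are themselves close copies, 79.5% to 92.8% identical over the aligned bases of each pair, so the 10 windows are not separate observations. These matches describe letters and are not binding sites.

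The transcripts of the 10 genes are close copies. Aligned in pairs, the longest annotated transcripts were 82.0% to 94.2% identical, with a median of 86.2% over 45 pairs. The closest pair was Klk1 with Klk1b5, and these 2 transcripts share 1 run of 145 identical bases. Of all 50-base windows of a transcript, 10.1% in Klk1b16 to 33.9% in Klk1b24 were also found in another gene, and 28.4% in Klk1. At 100 bases the share was at most 6.08%, in Klk1, followed by 5.26% in Klk1b5, and at 150 bases it was 0 for all 10. The read length and the treatment of reads that match several genes are not given in the sources used here, so counts of single members are less certain than their sum.

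Klk1 was by far the most abundant member and ranked 36 among all genes by its median CPM, followed by Klk1b26 at rank 252. Per kilobase of transcript the median level over the 14 libraries was 1842 CPM for Klk1 and 353 CPM for Klk1b26. On the same scale Klk1b4 had 69.0, Klk1b5 69.0, Klk1b9 66.0, Klk1b3 30.9, Klk1b22 29.2, Klk1b16 19.9, Klk1b1 7.22 and Klk1b24 3.49 CPM per kilobase. The count table gives lengths of 1391, 1387 and 1386 bases for Klk1b5, Klk1b16 and Klk1b26, and 839 to 889 bases for the other Klk1b members. It also starts Klk1b5, Klk1b16 and Klk1b26 upstream of their whole RefSeq promoter windows. Their values per kilobase would be higher with a shorter transcript, so their places in this order depend on the annotation. The neighbouring medians of Klk1b4, Klk1b5 and Klk1b9 lay well within the spread between libraries, as did those of Klk1b3 and Klk1b22. Levels did not follow the order of the genes along the chromosome, with Klk1 and Klk1b26 separated by 6 weaker members.

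**Figure D1:**
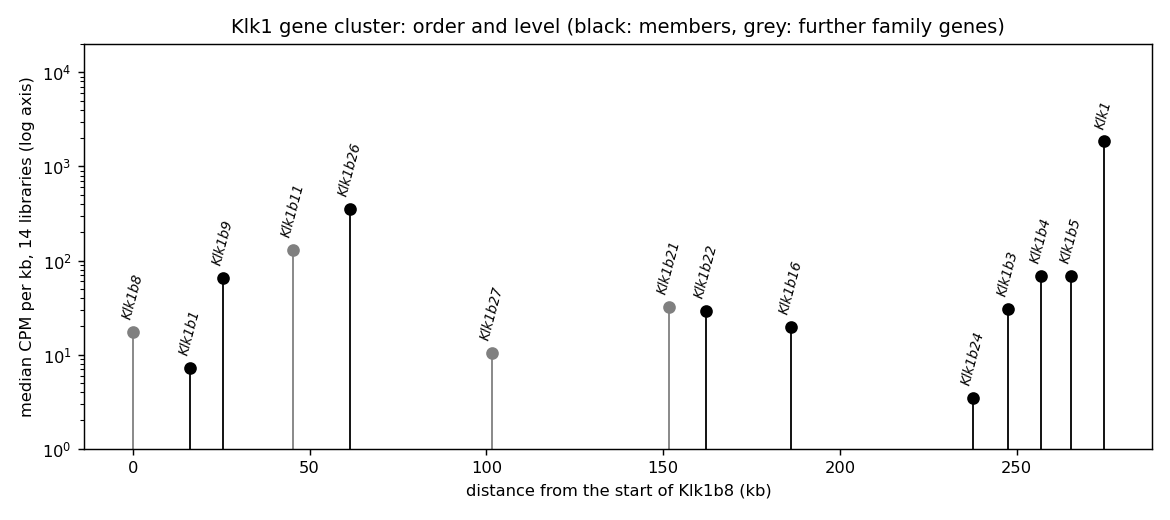
Median level of each Klk1 family gene over 14 libraries (vertical axis, CPM per kilobase, log scale) by its position in the cluster (horizontal axis, kilobases from the start of Klk1b8). Black points are the 10 members and grey points the further family genes. Klk1, at the right, had 1842 CPM per kilobase and Klk1b24 had 3.49.

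Members varied widely between libraries. Over all 14 libraries, from the lowest to the highest, Klk1 spanned a factor of 24.1, and the Klk1b members spanned 29.5 for Klk1b5 to 219 for Klk1b16. Within a group the factor was 3.08 to 8.81 for Klk1 and 2.36, for Klk1b24 in Tert+ after RT, to 38.3, for Klk1b16 in Tert+ without RT, among the Klk1b members. The highest library was Tert- no RT replicate 2 for all 9 Klk1b members, and Tert- no RT replicate 3 for Klk1. Tert+ no RT replicate 3 was the lowest library for 7 of the 9 Klk1b members, with Klk1b24 and Klk1b22 as the exceptions, and Klk1 was lowest in Tert+ RT replicate 4. Together the 10 genes took 0.0818% to 1.44% of all counts of a library.

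**Figure D2:**
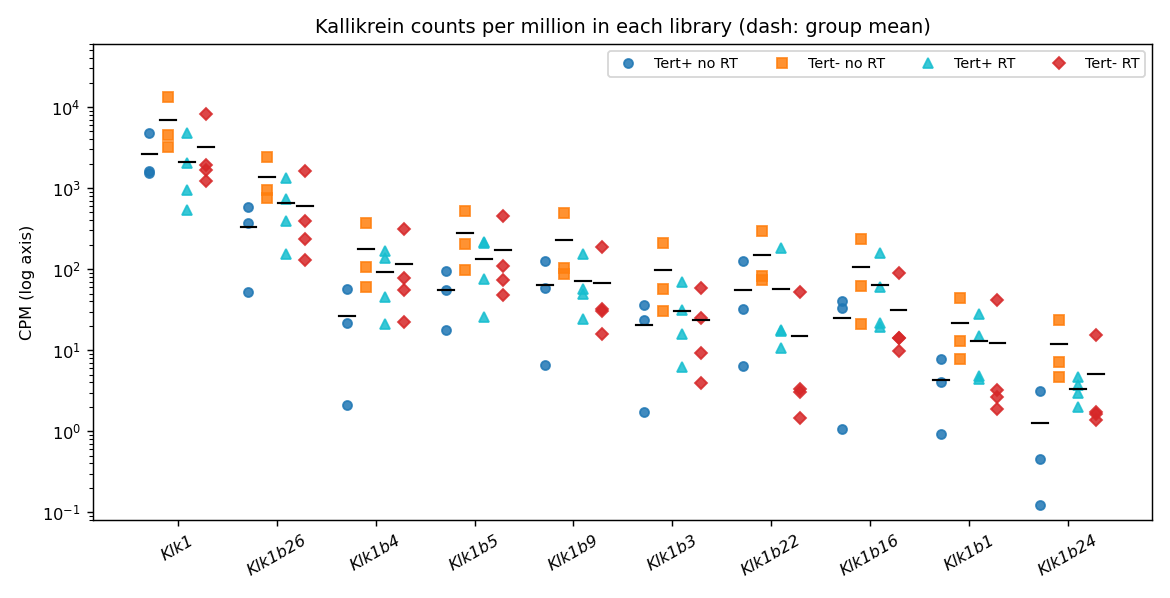
CPM of each member in every library (vertical axis, log scale), with genes along the horizontal axis, 1 symbol per group and a dash at the group mean. Klk1 lay between 544 and 13123 CPM, and the groups of every member spread over a wide range.

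Klk1, the kinin-releasing tissue kallikrein, had 4758, 1544 and 1625 CPM in the 3 Tert+ libraries without RT and 3209, 4536 and 13123 CPM in the 3 Tert- libraries without RT. The irradiated libraries had 937, 2031, 4789 and 544 CPM in Tert+ and 1227, 8182, 1938 and 1657 CPM in Tert-. All 4 groups overlapped, and the single highest value of each group stood well above the rest. Group means were 2642 ± 1833 (SD, n = 3), 6956 ± 5382 (SD, n = 3), 2075 ± 1916 (SD, n = 4) and 3251 ± 3301 CPM (SD, n = 4) in the order Tert+ without RT, Tert- without RT, Tert+ after RT and Tert- after RT. By edgeR's quasi-likelihood test over all genes, Klk1 had a log2 difference of -1.40 (SE 0.966, adjusted p = 1) between Tert+ and Tert- without RT and of -0.65 (SE 0.824, adjusted p = 0.959) after RT. The log2 difference of RT against no RT was -0.35 (SE 0.883, adjusted p = 0.898) in Tert+ and -1.10 (SE 0.881, adjusted p = 0.563) in Tert-. None of these passed the threshold of an adjusted p of 0.05.

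Among the members known as binding proteins of epidermal growth factor (EGF), Klk1b26 was the most abundant, and its product also cleaves prorenin. It had 368, 586 and 51.7 CPM in Tert+ without RT and 750, 2434 and 946 CPM in Tert- without RT. The highest Tert+ value was below the lowest Tert- value, so these 2 groups did not overlap. With RT it had 390, 1337, 728 and 155 CPM in Tert+ and 392, 1639, 236 and 129 CPM in Tert-, and these groups overlapped over nearly their whole range. The log2 difference of Tert+ against Tert- was -2.04 (SE 1.12, edgeR adjusted p = 1) without RT and 0.12 (SE 0.936, edgeR adjusted p = 0.996) after RT.

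Klk1b22, a further EGF-binding kallikrein, had 32.5, 125 and 6.38 CPM in Tert+ without RT and 83.4, 296 and 73.6 CPM in Tert- without RT. After RT it had 17.5, 184, 17.3 and 10.8 CPM in Tert+ and 3.08, 51.9, 1.45 and 3.28 CPM in Tert-. In Tert- all 4 irradiated libraries were below all 3 unirradiated ones, and 3 of the 4 rested on 11 to 38 reads against 701 to 3384 reads without RT. The log2 difference of RT against no RT in Tert- was -3.34 (SE 1.47, unadjusted p = 0.0438, edgeR adjusted p = 0.250), so Klk1b22 did not pass the threshold. In Tert+ the same difference was 0.05 (SE 1.39, edgeR adjusted p = 0.994) and the groups overlapped, with replicate 2 highest in both. The difference between these RT effects was 3.38 on the log2 scale (SE 2.03, edgeR adjusted p = 1.00). Without Tert- RT replicate 2 the difference in Tert- was -5.82 (edgeR adjusted p = 0.110), and without Tert- no RT replicate 2 it was -2.40 (edgeR adjusted p = 0.544).

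Klk1b9, the third EGF-binding kallikrein, had 58.2, 125 and 6.53 CPM in Tert+ and 88.2, 495 and 104 CPM in Tert- without RT. The irradiated libraries had 49.5, 153, 56.8 and 24.2 CPM in Tert+ and 32.5, 188, 30.5 and 15.96 CPM in Tert-. The ranges of all pairs of groups compared overlapped. Its log2 difference of RT against no RT in Tert- was -1.78 (SE 1.09, edgeR adjusted p = 0.417).

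Klk1b3 encodes an active protease, whereas the product of Klk1b4 lacks protease activity. Klk1b3 had 23.7, 36.5 and 1.75 CPM in Tert+ and 56.8, 208 and 30.2 CPM in Tert- without RT. With RT it had 15.9, 68.5, 31.7 and 6.16 CPM in Tert+ and 24.7, 57.9, 9.13 and 3.88 CPM in Tert-. Its groups overlapped in every comparison of pairs.

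Klk1b4 had 21.5, 56.2 and 2.13 CPM in Tert+ and 59.6, 367 and 106 CPM in Tert- without RT, with no overlap, although the highest Tert+ and the lowest Tert- library lay close to each other. After RT it had 45.3, 136, 167 and 21.0 CPM in Tert+ and 77.8, 310, 55.0 and 22.0 CPM in Tert-. The irradiated groups overlapped almost completely. The log2 difference of RT against no RT was 1.78 (SE 1.19, edgeR adjusted p = 0.484) in Tert+ and -0.61 (SE 1.11, edgeR adjusted p = 0.833) in Tert-.

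Klk1b16, which encodes gamma-renin, had 33.4, 40.7 and 1.06 CPM in Tert+ and 61.1, 232 and 21.1 CPM in Tert- without RT. The irradiated libraries had 19.5, 156, 59.9 and 21.9 CPM in Tert+ and 13.96, 88.6, 14.2 and 9.84 CPM in Tert-. Its groups overlapped in every comparison of pairs, and its log2 difference of Tert+ against Tert- after RT was 1.02 (SE 1.13, edgeR adjusted p = 0.946).

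Of the 3 remaining genes, Klk1b5 had 56.0, 93.9 and 17.8 CPM in Tert+ and 97.9, 526 and 205 CPM in Tert- without RT. These 2 groups did not overlap, but the highest Tert+ and the lowest Tert- library were nearly equal. With RT it had 76.2, 214, 212 and 25.3 CPM in Tert+ and 109, 459, 74.5 and 47.8 CPM in Tert-. Klk1b24 was the rarest member, with 0.122, 3.16 and 0.455 CPM in Tert+ and 7.22, 23.4 and 4.72 CPM in Tert- without RT. The lowest of these libraries held 1 read of Klk1b24, the groups did not overlap, and the log2 difference was -3.19 (SE 1.16, unadjusted p = 0.0142, edgeR adjusted p = 0.951). After RT Klk1b24 had 1.97 to 4.64 CPM in Tert+ and 1.38 to 15.6 CPM in Tert-, and Klk1b1 had 4.45 to 28.1 CPM in Tert+ and 1.90 to 41.1 CPM in Tert-. Without RT Klk1b1 had 4.03, 7.78 and 0.911 CPM in Tert+ and 7.73, 43.7 and 13.1 CPM in Tert-. The groups of Klk1b1 overlapped in every comparison of pairs.

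Between Tert+ and Tert- cells without RT, the log2 difference was below 0 for 10 of 10 members, with a median of -2.16 and a range of -3.19 to -1.40. Over all genes tested 49% were below 0 and the median was 0.01. CPM ranges did not overlap for 4 of 10 members, namely Klk1b4, Klk1b5, Klk1b24 and Klk1b26, against 8.87% of all genes. With edgeR 0 of 10 members passed the adjusted threshold, against 0.0377% of all genes, and 1 of 10, Klk1b24, had an unadjusted p under 0.05, against 4.5%. DESeq2 and limma voom also called 0 members. Because the members vary together from library to library, the shared direction is not 10 separate observations.

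After RT, the Tert+ against Tert- difference was above 0 for 6 members and below 0 for 4, with a median of 0.08, while 50.4% of all genes were below 0. The most positive member was Klk1b22, at 1.93 (SE 1.36, edgeR adjusted p = 0.859). Again 0 of 10 members passed with edgeR, DESeq2 or limma voom, against 0.0126% of all genes with edgeR, and 0 of 10 had an unadjusted p under 0.05 against 7.39%. CPM ranges overlapped for 10 of 10, against 4.88% of all genes without overlap.

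In Tert+ cells the RT against no RT difference was above 0 for 9 members and below 0 for Klk1, with a median of 1.10 over the 10, while 50.1% of all genes were below 0. In Tert- cells it was below 0 for 10 of 10, with a median of -1.21, while 50.8% of all genes were below 0. With edgeR 0 of 10 members passed in Tert+, against 1.98% of all genes, and 0 of 10 in Tert-, against 1.62%. DESeq2 and limma voom called 0 members in either population. Unadjusted p-values under 0.05 were found for 0 of 10 members in Tert+, against 18%, and for 1 of 10 in Tert-, Klk1b22, against 18.8%. Ranges did not overlap for 0 of 10 members in Tert+, against 15.5% of all genes, and for 1 of 10 in Tert-, Klk1b22, against 18.9%. These comparisons share libraries with the Tert+ against Tert- comparisons, so the opposite signs in the plot of log2 differences are not separate evidence.

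**Figure D3:**
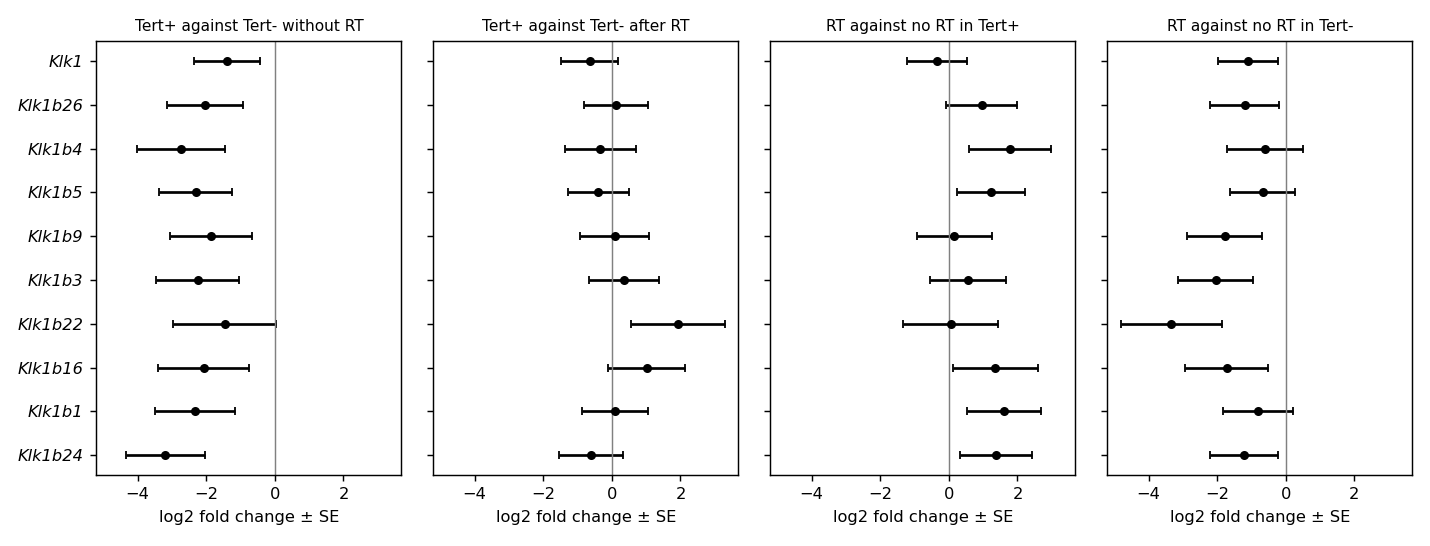
Log2 fold change of each member from the edgeR model (horizontal axis, point) with its standard error (bar) in 4 comparisons, 1 per panel, with genes on the vertical axis. Without RT all 10 points lie below 0, from -3.19 to -1.40, and in Tert- cells Klk1b22 is lowest at -3.34. No point passed an adjusted p of 0.05.

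The test of whether RT acted differently in the 2 populations, Tert+ minus Tert-, gave a positive value for 10 of 10 members, with a median of 2.41, while 48.9% of all genes were below 0. With edgeR 0 of 10 members passed and 0% of all genes did, and 0 of 10 members had an unadjusted p under 0.05 against 3.63% of all genes. DESeq2 called 12 genes and limma voom 0, in each case with 0 members among them. Averaged over the 2 populations, RT against no RT was above 0 for 4 members and below 0 for 6, with a median of -0.15, while 50.6% of all genes were below 0, and 0 of 10 passed with edgeR, DESeq2 or limma voom against 13.4% of all genes with edgeR. At an unadjusted p under 0.05 the count was 0 of 10 against 28.9%. Averaged over both RT states, Tert+ against Tert- was below 0 for 9 members and above 0 for Klk1b22, with a median of -0.99, while 49.6% of all genes were below 0. There 0 of 10 passed with the same 3 tools, against 0.22% with edgeR, and 1 of 10, Klk1b24, had an unadjusted p under 0.05 against 8.24%.

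The 10 genes summed gave 5356, 2619 and 1714 CPM in Tert+ without RT and 4421, 9161 and 14626 CPM in Tert- without RT. After RT the sum was 1559, 4312, 6082 and 815 CPM in Tert+ and 1885, 11033, 2363 and 1892 CPM in Tert-. The sums overlapped in each of the 4 pairs of groups. Divided by the summed CPM of 10 epithelial genes, the members stood at 6.47, 9.68 and 7.29 in Tert+ and 13.9, 29.2 and 22.8 in Tert- without RT, and these values did not overlap. After RT the same quotient was 5.08, 8.37, 15.0 and 5.86 in Tert+ and 7.44, 22.1, 6.83 and 3.78 in Tert-, with overlap. The Klk1b sum divided by the same 10 epithelial genes did overlap without RT, at 0.377 to 3.97 in Tert+ and 2.34 to 14.7 in Tert-. The gap without RT therefore depended on including Klk1.

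Klk1 and the Klk1b genes did not keep a fixed proportion. Klk1 reads per summed Klk1b read, by CPM, came to 7.96, 1.44 and 18.3 in Tert+ and 2.65, 0.981 and 8.73 in Tert- without RT. After RT the ratio was 1.51, 0.890, 3.70 and 2.01 in Tert+ and 1.86, 2.87, 4.55 and 7.05 in Tert-. All groups overlapped in this ratio, and its extremes, 18.3 and 0.890, both came from Tert+ libraries. Among the 9 Klk1b members Spearman's rho over the 14 libraries ran from 0.534 to 0.987, with a median of 0.862 over 36 pairs, while Klk1 with the 9 Klk1b members had 0.398 to 0.604, with a median of 0.538. All of these points share libraries, and close copies may share reads, so the values are given as a description.

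**Figure D4:**
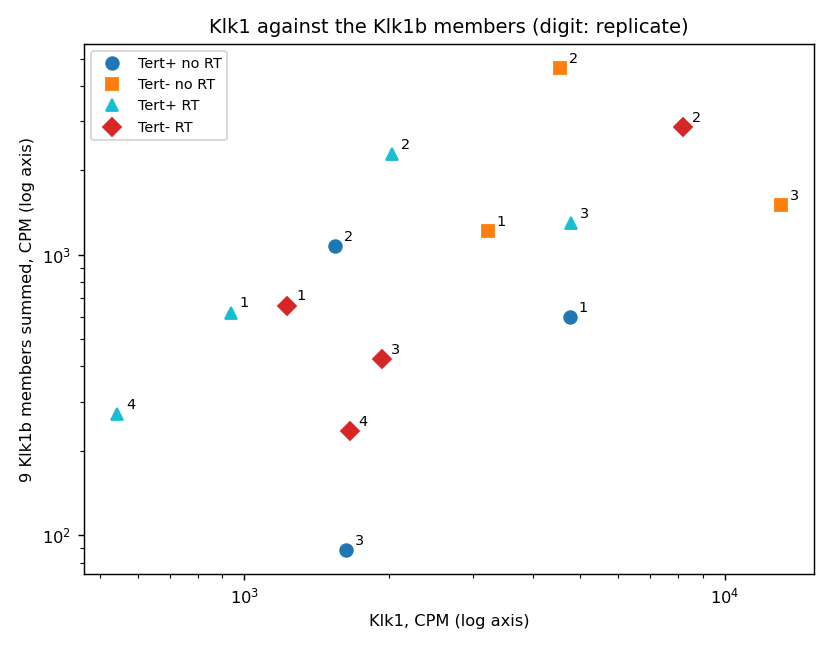
Klk1 CPM (horizontal axis, log scale) against the summed CPM of the 9 Klk1b members (vertical axis, log scale) in 14 libraries, with 1 symbol per group and the replicate as a digit. Tert+ no RT replicate 3 had 1625 CPM of Klk1 and 88.7 CPM of the Klk1b sum, and Tert- no RT replicate 2 had 4536 and 4626 CPM.

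Each member's reads were also divided by those of Klk1b26 in the same library, a ratio that does not depend on the library total. Klk1b22 reads came to 8.82%, 21.4% and 12.3% of Klk1b26 reads in Tert+ and 11.1%, 12.2% and 7.78% in Tert- without RT. After RT they came to 4.49%, 13.7%, 2.38% and 6.94% in Tert+ and 0.786%, 3.17%, 0.616% and 2.54% in Tert-. All irradiated Tert- libraries were below all unirradiated ones, with a mean log2 difference of -2.86 (exact permutation test, two-sided, p = 0.0286, the smallest that 4 against 3 libraries allow). Klk1b4 reads were 7.96%, 15.1% and 11.2% of Klk1b26 reads in Tert- without RT and 19.8%, 18.9%, 23.3% and 17.1% after RT, a log2 difference of 0.83 with no overlap (exact permutation test, two-sided, p = 0.0286).

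In Tert+ the Klk1b4 percentages were 5.84%, 9.59% and 4.11% without RT and 11.6%, 10.2%, 23.0% and 13.5% after RT, a log2 difference of 1.18 with no overlap (exact permutation test, two-sided, p = 0.0286). Klk1b5 reads were 13.1%, 21.6% and 21.7% of Klk1b26 reads in Tert- without RT and 27.9%, 28.0%, 31.5% and 37.1% after RT, a log2 difference of 0.75 with no overlap and the same exact permutation p. In Tert+ the Klk1b5 percentages overlapped, with a log2 difference of -0.05 (exact permutation test, two-sided, p = 0.914). These ratios were computed after the values were seen, as 68 tests of all members against Klk1 and against Klk1b26, and after Benjamini-Hochberg adjustment the 4 values of 0.0286 were each 0.389, so 0 of 68 passed. Of the 68, 5 had the unadjusted exact permutation p of 0.0286, the fifth being Klk1b16 relative to Klk1 between Tert+ and Tert- after RT, with a log2 difference of 1.81. When Klk1 was the reference, the 4 comparisons set apart relative to Klk1b26 all overlapped. The log2 differences in Tert- were then -3.26 for Klk1b22, 0.43 for Klk1b4 and 0.35 for Klk1b5 (exact permutation p = 0.0857, 0.686 and 0.743). In Tert+ that of Klk1b4 was 2.93 (exact permutation p = 0.0571). The separation thus depended on the reference gene.

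**Figure D5:**
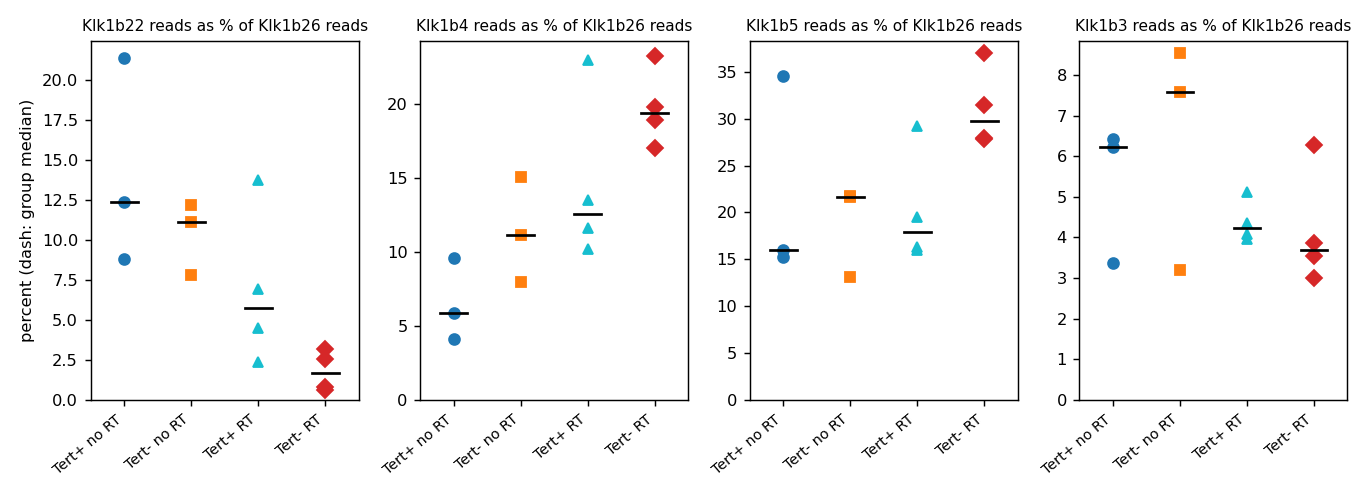
Reads of 4 members as a percent of Klk1b26 reads in the same library (vertical axes), by group (horizontal axes), with 1 point per library and a dash at the group median. Klk1b22 lay between 7.78% and 12.2% in Tert- without RT and between 0.616% and 3.17% after RT, and the Klk1b4 percentages of Tert- were 17.1% or more after RT and 15.1% or less without.

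Other products of the granular duct varied with the Klk1b members. Over 14 libraries and on the log2 CPM scale, Klk1b26 and Crisp3, a cysteine-rich secretory protein, had Pearson's r of 0.897 (permutation p = 2e-05, adjusted 0.000126) and Spearman's rho of 0.965 (permutation p = 1e-05, the smallest that 100000 resamples can give, adjusted 8.8e-05). Without the 2 libraries farthest from the median of Klk1b26, r was 0.884. Klk1b26 and Egf had r of 0.842 (permutation p = 0.00016, adjusted 0.00064) and rho of 0.798 (permutation p = 0.00092, adjusted 0.00337), and r was 0.761 without 2 libraries. Klk1b22 and Egf had r of 0.855 (permutation p = 0.00011, adjusted 0.000587) and rho of 0.833 (permutation p = 0.00046, adjusted 0.00184), and r was 0.914 without 2 libraries. Klk1 and Epcam had r of 0.703 (permutation p = 0.00515, adjusted 0.0162) and rho of 0.793 (permutation p = 0.00111, adjusted 0.00376), and r was 0.596 without 2 libraries. Klk1b26 and Epcam had r of 0.2997 (permutation p = 0.299, adjusted 0.346) and rho of 0.310 (permutation p = 0.283, adjusted 0.319), and r was 0.399 without 2 libraries. Klk1 also had r of 0.623 with Crisp3 (permutation p = 0.0175, adjusted 0.0384) and of 0.529 with Egf (permutation p = 0.0521, adjusted 0.0867). With the renin gene Ren1 it had r of 0.267 (permutation p = 0.355, adjusted 0.401). These relations are a part of the 44 computed and were adjusted over the 44. They pool libraries of all 4 groups, each of which is too small for a value of its own.

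Among 12884 named genes outside the family, those whose levels ranked most like the summed members included Ndrg2, with rho of 0.906, Gnl1 and Wfdc2, each with 0.890, Sema3c with 0.881, Klhdc8a with 0.876, Inpp5j with 0.873, Fa2h with 0.868, Csprs with 0.864 and Pcp4l1 with 0.842, over 14 libraries. The same search with the Klk1b sum, added after the values were seen, placed Crisp3 first with rho of 0.978, and Ren1 was within its first 10, with 0.833. For Klk1 alone the first were Ndrg2, with 0.942, and Wfdc2, with 0.916.

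Among other granular duct products, Egf, the renin gene Ren1, Crisp1 and Crisp3 were followed. Without RT, the log2 difference of Tert+ against Tert- was below 0 for these 4 genes, at -4.60 to -1.21. That of RT against no RT was above 0 for the 4 in Tert+, at 0.06 to 1.77, and below 0 for the 4 in Tert-, at -2.87 to -0.18. With edgeR 0 of these 4 passed in any of the 7 comparisons, and Crisp1, with 0 to 7.29 CPM, had an unadjusted p of 0.0234 without RT. Egf had 55.5, 119 and 6.22 CPM in Tert+ and 50.7, 525 and 52.7 CPM in Tert- without RT. After RT it had 11.3, 204, 29.6 and 8.81 CPM in Tert+ and 9.43, 70.7, 22.5 and 11.6 CPM in Tert-. Its groups overlapped, and its log2 difference of RT against no RT in Tert- was -2.87 (SE 1.37, edgeR adjusted p = 0.288). Ren1 spanned 0.759 to 172 CPM and Crisp3 66.5 to 532 CPM over the 14 libraries.

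The further Klk1 family genes, Klk1b8, Klk1b11, Klk1b21 and Klk1b27, were below 0 in 4 of 4 cases for Tert+ against Tert- without RT, with a median of -1.90, and for RT against no RT in Tert-, with a median of -1.25. With edgeR 0 of 4 passed in any comparison. Of 12 kallikrein-related peptidase genes outside the Klk1 family, 3 had a count in any library and 1, Klk8, was tested, at 0 to 10.1 CPM. The kininogen genes Kng1 and Kng2, the substrates of tissue kallikrein, and the kinin receptor gene Bdkrb2 had 0 counts in 14 of 14 libraries. The glucocorticoid receptor gene Nr3c1 lay at 160 to 267 CPM and did not pass in any of the 7 edgeR comparisons.

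Markers of other cells moved between the same groups, and their part in the kallikrein values was not tested. The summed macrophage list, with 7 of 7 genes counted, was at 415 to 1629 CPM in Tert+ and 1863 to 2590 CPM in Tert- without RT, and 367 to 517 and 358 to 1413 CPM after RT. Without RT 6 of the 7 were below 0 for Tert+ against Tert-, and 1 passed, C1qc, a complement gene of macrophages, which was lower in Tert+ with a log2 difference of -5.98 (SE 0.889, edgeR adjusted p = 0.0433). The lysozyme gene Lyz2 was above 0, at 1.03 (SE 0.517, edgeR adjusted p = 1). The summed acinar list, with 11 of 12 genes counted and Prb1 at 0, was at 1173 to 98421 CPM in Tert+ and 3749 to 21201 CPM in Tert- without RT, and at 808 to 4496 and 1088 to 1776 CPM after RT. For RT against no RT averaged over both populations, 8 of the 11 were below 0 and 3 above, and Mucl2, Pip and Lpo fell, Mucl2 by 4.45 on the log2 scale (SE 1.01, edgeR adjusted p = 0.0165), where 13.4% of all genes were called. The summed epithelial list, with 10 of 10 genes counted, was at 235 to 828 and 314 to 642 CPM without RT and at 139 to 516 and 253 to 500 CPM after RT, in the order Tert+ and Tert-.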

How the data were processed

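The authors deposited 1 table of raw read counts per gene for 14 libraries, without normalisation, with gene names, positions and lengths, per the file headers. The submitters' processing notes name HISAT2, without a version, and the build mm10; the counting program is not given in the sources used here. The labels' protocols state 1 ng of RNA per library and a sort on DAPI, EpCAM and tdTomato. Totals ran from 5520412 to 15943597 counts.

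Counts were analysed with edgeR 4.0.16 in R 4.3.3: filterByExpr on the 4 groups left 15915 genes, TMM factors scaled the totals, and 1 model with 1 term per group over all 14 libraries with robust dispersions gave quasi-likelihood F tests, two-sided, for 7 comparisons, adjusted by Benjamini-Hochberg over all 15915 genes (threshold 0.05). SE is the absolute log2 fold change divided by the root of F. CPM uses TMM-scaled totals, and CPM per kilobase divides by the table's gene length. DESeq2 1.42.0, limma 3.58.1 (voom), RLE factors, no filter, a fit of the compared groups alone, a replicate block and each library left out were alternatives. The scripts were tested on simulated data.

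The members and all gene lists were chosen with earlier results of these data known. Named genes were all 10 members, every gene of a list of at most 5 symbols that was counted, list genes past the threshold or else the 2 most abundant, of which those that bear on the kallikreins are given, and the 10 genes most like the summed members; some genes that this rule names are not reported here. Pearson's and Spearman's correlations of members with single genes outside the family, such as Egf and Epcam, used log2(CPM + 0.5) for the outside gene. The search for the genes most like the members ranked CPM with nothing added. Ratios between members were compared by exact permutation tests of log2 count ratios. Transcript identity used GENCODE sequences of the same build, since a comparison of proteins could not be made here, and promoters came from RefSeq GRCm38.p6. Reads carry no molecular identifiers, so precision from counting is an upper bound.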

Additional observations from a re-analysis of the deposited data

Results flagged for a closer look

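In the irradiated groups, 1 library of a group often stood apart from the other 3. Groups without RT hold 3 libraries each and were not examined, so this cannot be read as a feature of RT. Of 38 pairs of a gene and a group of 4 libraries examined, 13 had a highest library whose gap to the next, divided by the group's range, exceeded Dixon's 95% critical value. The 5% of groups that chance alone sets apart holds for normally distributed values. The gaps were taken on CPM and not on the log2 scale, and a single high library weighs more on the CPM scale. These genes also vary together, so the 38 pairs are not independent. For both reasons 13 of 38 cannot be set against 5%.

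In 11 of the 13 the library was Tert- RT replicate 2. Among the members it had 8182 CPM for Klk1, 41.1 for Klk1b1, 459 for Klk1b5, 188 for Klk1b9, 88.6 for Klk1b16, 51.9 for Klk1b22 and 15.6 for Klk1b24. Outside the 10 members the same library had 42.2 CPM for Klk1b8, 513 for Klk1b11, 65.4 for Klk1b21 and 532 for Crisp3. In the other 2 the library was Tert+ RT replicate 2, with 184 CPM for Klk1b22 and 204 for Egf.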

How the results depend on the processing

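With edgeR, DESeq2, limma voom, RLE factors, no filter on low counts, a fit of the compared groups alone and each library left out, 0 members passed in any of the 7 comparisons, and the lowest adjusted p of a member with 1 library left out was 0.0691, for Klk1b22. The 10 members stayed below 0 for Tert+ against Tert- without RT under all of these settings, and Klk1b22 stayed below 0 for RT against no RT in Tert-, at -5.82 to -2.40 with each library left out. Whether the replicate numbers pair the libraries is not stated, although the description codes of Tert+ and Tert- libraries of the same number are consecutive. Deviations of these libraries from their group means correlated at -0.0491 to 0.119, and 4 of 7 pairs correlated best with their own number. Those of RT and no RT libraries of the same number correlated at -0.0802 to 0.0599, and 2 of 6 pairs correlated best with their own number. With so few libraries per group these values cannot decide whether the libraries are paired. The main tests left them unpaired. The replicate block was the number within each RT state for Tert+ against Tert- and for the difference of the RT effects. For RT against no RT it was the number across RT states, a pairing that the labels do not state. With this second block 1 member passed, Klk1b22, for RT against no RT in Tert- (log2 difference -4.00, edgeR adjusted p = 0.0114) and averaged over populations (-1.90, edgeR adjusted p = 0.00934). The second block also reversed Klk1b16 (0.29) and Klk1b26 (0.18) for RT against no RT averaged over populations. The first reversed Klk1b24 for Tert+ against Tert- after RT (0.23) and left 1 gene called in that comparison. limma voom reversed Klk1b24 for Tert+ against Tert- after RT (0.14), Klk1b22 for RT against no RT in Tert+ (-0.44), and Klk1b1 (-0.19) and Klk1b5 (-0.029) for RT against no RT averaged over populations. The cause was not tested.

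Leaving out 1 library at a time changed the sign of 23 of 70 member log2 differences in at least 1 case, none of which had passed the threshold. For Tert+ against Tert- after RT the ranges were Klk1 -1.47 to 0.36, Klk1b1 -0.61 to 2.33, Klk1b24 -0.95 to 1.06, Klk1b26 -0.50 to 1.37, Klk1b3 -0.42 to 1.30, Klk1b4 -0.80 to 0.84, Klk1b5 -0.73 to 0.77 and Klk1b9 -0.62 to 1.43. For RT against no RT in Tert+ the ranges were Klk1 -1.18 to 0.39, Klk1b22 -1.85 to 1.57, Klk1b3 -0.22 to 1.28 and Klk1b9 -0.55 to 1.15. For RT against no RT in Tert- the ranges were Klk1b1 -3.04 to 0.22, Klk1b4 -1.77 to 0.48 and Klk1b5 -1.83 to 0.17. For the difference of the RT effects the ranges were Klk1 -0.088 to 1.76. For RT against no RT averaged over populations the ranges were Klk1b1 -0.71 to 0.92, Klk1b16 -0.84 to 0.49, Klk1b24 -0.75 to 1.10, Klk1b26 -0.73 to 0.23 and Klk1b5 -0.29 to 0.71. For Tert+ against Tert- averaged over RT states the ranges were Klk1b16 -0.99 to 0.16 and Klk1b22 -0.72 to 1.49.

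Counts of all genes called moved more. For Tert+ against Tert- without RT, 6 genes were called by edgeR, 74 by DESeq2, 22 by limma voom, 16 without the filter and 1 to 13 with each library left out. After RT the counts were 2, 109, 0 and 4, with 1 from the 2 groups alone and 0 to 7 with each library left out. RT against no RT gave 315 in Tert+ with edgeR, 1057 with DESeq2, 49 from the 2 groups alone and 21 to 507 with each library left out, and 258, 1198, 88 and 18 to 901 in Tert-. The difference of the RT effects gave 0, 12 by DESeq2 and 0 to 1 with each library left out. Averaged over populations RT gave 2126 and 1211 to 2516 with each library left out, and averaged over RT states Tert+ against Tert- gave 35, 162 by DESeq2 and 12 to 52 with each library left out. Relative to the epithelial list, the summed members' log2 difference went from -0.26 to 0.02 for RT against no RT in Tert+. Klk1b24 and, after RT in Tert-, Klk1b22 rest on few reads.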

Other observations

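Marker genes of other cell types give the setting in which the kallikreins were measured. Of 11 duct identity and transport genes, 10 were below 0 for Tert+ against Tert- without RT, with a median of -1.39 on the log2 scale, where 49% of all genes were below 0. With edgeR 0 passed, while 2 had an unadjusted p under 0.05, against 4.5% of all genes. For RT against no RT, 11 of 11 were above 0 in Tert+, with a median of 0.94, and 7 of 11 in Tert-, with a median of 0.40, where 10 of 10 kallikreins were below 0. The most abundant of them were Tfcp2l1, a transcription factor of ducts, at 13.2 to 318 CPM, and the keratin Krt7, at 8.04 to 131 CPM. The secreted intercalated duct products Dcpp3 and Dcpp2 spanned 28.2 to 12541 and 17.6 to 7388 CPM, and the myoepithelial genes Acta2 and Krt14 lay at 0 to 22.2 and 0 to 22.1 CPM. No gene of the intercalated duct, epithelial, myoepithelial and T cell lists passed in any of the 7 edgeR comparisons. The epithelial genes Krt18 and Spint2 lay at 35.5 to 199 and 47.0 to 209 CPM, and the T cell genes Cd3e and Cd3g at 5.004 to 104 and 2.91 to 62.4 CPM.

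Several immune cell genes passed with edgeR. Averaged over RT states, the macrophage genes C1qa (log2 difference -4.25, adjusted p = 0.0306), C1qb (-4.56, adjusted p = 0.0302), C1qc (-4.48, adjusted p = 0.0046) and Adgre1 (-2.82, adjusted p = 0.0469) were lower in Tert+, out of 7 genes of their list. Of the other 3, Lyz2 went the other way, at 1.08 (unadjusted p = 0.00711, adjusted p = 0.369). Averaged over populations, the myeloid genes Lyz2 (-1.74, adjusted p = 0.00562), Csf1r (-1.81, adjusted p = 0.0112) and Cd68 (-0.92, adjusted p = 0.0339) and the B lineage genes Jchain (-4.58, adjusted p = 0.00549), Xbp1 (-0.73, adjusted p = 0.00392) and Ighm (-0.39, adjusted p = 0.0348) fell after RT, where 13.4% of all genes were called. In the same comparison 3 of 7 macrophage genes were above 0, up to 0.73, as were 2 of 8 B cell genes, up to 0.46, and 2 of 5 plasma cell genes tested, up to 0.67, and 0 genes of these lists rose. Of the acinar list, Pip (-3.62, adjusted p = 0.0171) and Lpo (-4.86, adjusted p = 0.0389) fell in the same comparison as Mucl2. Of 16 kallikrein substrates, receptors and inhibitors, 9 were tested and 0 passed, with 2 at an unadjusted p under 0.05 for RT in Tert+ and 1 for the difference of the RT effects and 1 for RT averaged over populations.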
